A study of Drosophila melanogaster with 4 samples.

Results

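Chromosome 4, the small dot chromosome of Drosophila melanogaster, was described here as consecutive tiles of 1 kb, cut from position 1 to position 1351857 of sequence 4 in FlyBase release 5. This gave 1352 tiles, the last of them 857 bp long, of the 139719 tiles that cover all sequences carrying clusters. The tiles were set by position alone, without reference to the measured values. For each tile the covered share was taken, which is the percentage of its bases lying inside a cluster of significant enrichment called by the authors.

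The clusters come from ChIP-seq against histone H3 dimethylated at lysine 9 (H3K9me2) in whole wild-type embryos of the strain Oregon-R-modENCODE, aged 14 to 16 h, with an antibody described as a new lot. There were 2 ChIP libraries and 2 input libraries, and no other genotype, stage or treatment. Each ChIP library has its own cluster list, called replicate 1 and replicate 2 here, and a further list of the replicate set is called the pooled list. Whether the embryos of the replicates were collected separately is not stated in the labels. Each SD below is thus a spread between libraries and may be technical, except the SD of the edge shares, which is explained where given. Whole embryos mix many cell types, so a covered base may be marked in all cells or in some.

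H3K9me2 is a modification of heterochromatin that is bound by HP1a through its chromodomain. On most of the genome it concentrates around the centromeres. Chromosome 4 is unusual in that heterochromatin proteins and repeated elements are spread along its arm between active genes, among them the developmental regulators ci, ey and toy. The methyltransferase Eggless, the fly homologue of SETDB1, and the chromosome-specific protein POF are known to act on the banded part of this chromosome. Position 1 is the centromere-proximal side of the sequence and the right end is the telomeric side. Genes and bases are not placed on the tiles, because the gene table used here follows release 6, and no release 5 sequence was used here.

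Chromosome 4 was divided between marked and unmarked tiles in nearly equal parts. Replicate 1 covered 727 of the 1352 tiles over at least 50%, which is 53.8%, against 17.0% of the tiles of all sequences. Replicate 2 covered 608 tiles over at least 50%, which is 45.0%, against 15.5% of all tiles. The pooled list covered 810 tiles to this extent, or 59.9%, against 19.4% of all tiles. The mean of the replicates was 49.4% ± 6.22 (SD, n = 2), and a tile covered over at least 50% is called marked below.

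Most tiles were either full or empty. In replicate 1, 574 tiles were covered throughout and 534 held no covered base, leaving 244 tiles that were covered in part. In replicate 2 the corresponding numbers were 483, 649 and 220, and in the pooled list they were 643, 458 and 251. Full tiles made up 42.5% of chromosome 4 in replicate 1 (14.3% of all tiles), 35.7% in replicate 2 (13.1% of all tiles) and 47.6% in the pooled list (16.2% of all tiles). Empty tiles made up 39.5% of chromosome 4 in replicate 1 (80.9% of all tiles), 48.0% in replicate 2 (82.6% of all tiles) and 33.9% in the pooled list (78.0% of all tiles). Together, 466 tiles were covered throughout in all 3 lists and 458 were empty in all 3. The latter are all the tiles that were empty in the pooled list, which is a list of the same replicate set. The corresponding shares over all tiles were not taken. The state also persisted from tile to tile. After a marked tile the next one was marked in 86.1% of cases in replicate 1 and 84.5% in replicate 2. After an unmarked tile the next one was marked in 16.0% and 12.5%. No replicate cluster was shorter than 1301 bp, which is longer than a tile, so this persistence follows in part from cluster length.

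**Figure D1:**
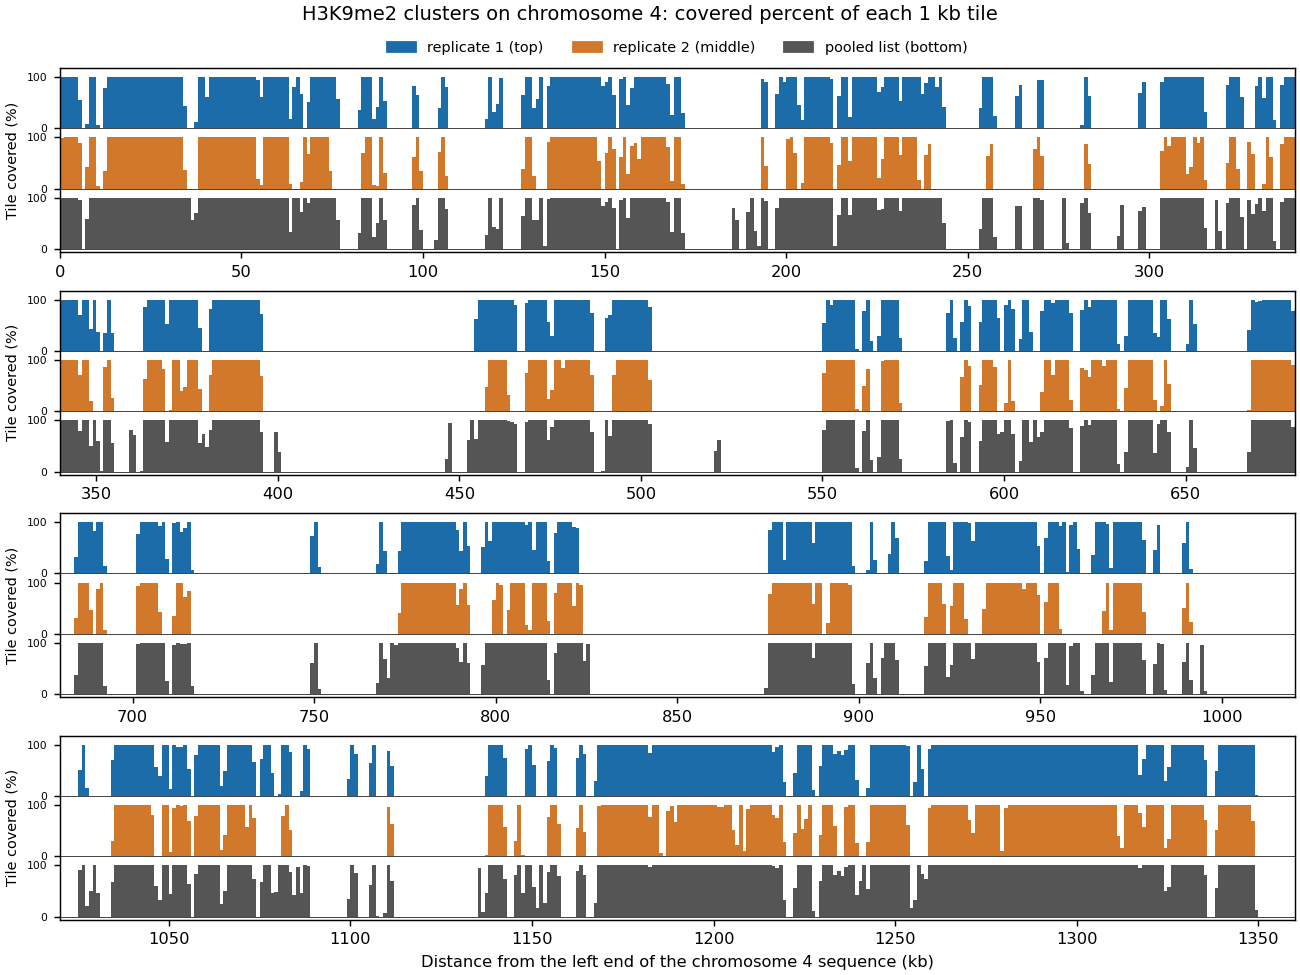
Covered percent of each 1 kb tile of chromosome 4 (vertical axis, 0 to 100 in each track) against the distance from the left end of the sequence in kb, in 4 rows, with replicate 1 on top, replicate 2 in the middle and the pooled list at the bottom. Both ends are nearly filled, and the middle alternates between short marked domains and empty stretches, and the longest stretch that was empty in all 3 lists spans 48.9 kb.

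The marked part was made of many short domains. A domain is a stretch of covered bases without a break, and on chromosome 4 each deposited cluster formed a domain of its own. Replicate 1 had 134 domains over 718 kb and replicate 2 had 118 domains over 602 kb. Their median lengths were 3.01 kb and 3.31 kb, a mean of 3.16 kb ± 0.212 (SD, n = 2). In replicate 1 the middle 50% of the domains lay between 2.01 and 6.49 kb, and in replicate 2 between 2.00 and 6.31 kb. The length was unevenly held, since the 25 longest domains made up at least 50% of the covered length in each replicate. Domains of at least 10 kb numbered 16 in replicate 1 and 17 in replicate 2 and held 39.4% and 39.8% of the covered length. The shortest domains were 1313 and 1322 bp long, close to the shortest cluster of each whole list (1301 and 1302 bp). If a minimum length was set in the calling, which is not stated, shorter marked stretches could not appear in these lists.

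Unmarked islands, the stretches between domains and at both sequence ends, were mostly short but were dominated in length by a few. Replicate 1 had 135 islands with a median of 1.96 kb, and replicate 2 had 119 with a median of 2.44 kb, a mean of 2.20 kb ± 0.345 (SD, n = 2). Islands under 1 kb numbered 44 in replicate 1 and 31 in replicate 2, and 11 and 3 of these were under 100 bp. In each replicate the latter included the stretch before the first covered base of the sequence. Such narrow gaps lie below the tile size, and with clusters joined over gaps below 1 kb, a mean of 89.5 domains remained per replicate, with a median length of 4.92 kb. At the other extreme, 15 islands of replicate 1 and 18 of replicate 2 were at least 10 kb long, and they held 59.2% and 66.7% of the unmarked length. The longest island was the same place in both replicates, from 395716 to 454373 in replicate 1 (58.7 kb) and from 395687 to 457530 in replicate 2 (61.8 kb).

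**Figure D2:**
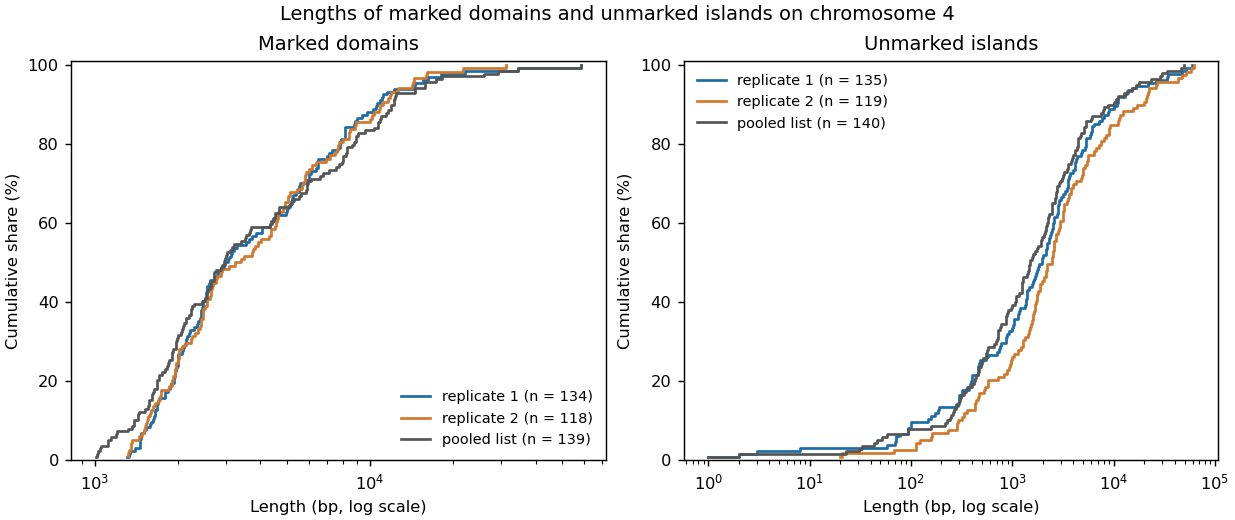
Cumulative share in percent (vertical axes) of marked domains (left) and unmarked islands (right) of chromosome 4 up to a given length in bp (log axes), for each list. The domain curves of the replicates lie close together with medians of 3.01 and 3.31 kb, and the island curve of replicate 2 lies to the right of that of replicate 1, with medians of 2.44 and 1.96 kb.

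Bases covered in none of the 3 lists formed 137 common islands over 556 kb, or 41.2% of the chromosome. The 10 longest of them held 274 kb, which is 49.2% of that length. The longest ran from 825974 to 874881 and spanned 48.9 kb. It was flanked in replicate 1 by domains that ended at 822892 and began at 875150, and in replicate 2 by domains that ended at 823953 and began at 875232. Its right edge therefore differed by 82 bp between the replicates and its left edge by 1061 bp. The second longest ran from 400382 to 446751 and spanned 46.4 kb. In both replicates this island was wider, because the pooled list alone held short clusters at its borders, with scores of 0.405 on the left and 0.451 on the right. The replicates ended the domain to its left at 395715 and 395686, a difference of 29 bp, while the domain to its right began 3157 bp apart.

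The third longest common island ran from 716163 to 749270 (33.1 kb) and the eighth from 751119 to 767781 (16.7 kb). They were parts of a single island of 57.8 kb in replicate 2, and in replicate 1 they were separated by a lone domain of 1.85 kb with a score of 0.589. The fifth, from 521617 to 550179 (28.6 kb), and the seventh, from 502937 to 520602 (17.7 kb), likewise formed a single island of 47.6 kb in both replicates. They were separated there only by a pooled cluster of 1.01 kb. The fourth ran from 995055 to 1025099 (30.0 kb), the sixth from 1111688 to 1135057 (23.4 kb), the ninth from 652518 to 667595 (15.1 kb) and the tenth from 171319 to 185203 (13.9 kb). The flanking edges of some of these islands lay far apart in the replicates, by 24328 bp on the right of the third, 9198 bp on the right of the fourth, 35283 and 5781 bp on the left and right of the eighth and 6995 bp on the left of the ninth. At the fifth, the sixth, the seventh and the one from 171319, the edges differed by 42 to 381 bp. All 14 common islands of at least 10 kb lay between 106809 and 1135057, so none of them reached either end of the chromosome.

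Bases covered in both replicates formed 122 common domains over 586 kb, or 43.4% of the chromosome, and the pooled list covered every base of them. The longest ran from 1280061 to 1311392 and spanned 31.3 kb. The second ran from 12649 to 34365 and spanned 21.7 kb. Both lie near an end of the chromosome. The third ran from 773599 to 789558 (16.0 kb), the fourth from 381296 to 395686 (14.4 kb), the fifth from 134177 to 148538 (14.4 kb) and the ninth from 1034693 to 1045814 (11.1 kb), all of them in the interior. The other four of the 10 longest lay towards the right end, from 1168012 to 1182253 (14.2 kb), from 1189337 to 1201965 (12.6 kb), from 1259083 to 1270714 (11.6 kb) and from 1242844 to 1253609 (10.8 kb). Common domains of at least 10 kb numbered 14 and held 34.0% of the common length.

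Neighbouring common domains were grouped into blocks by joining those less than 5 kb apart, a distance chosen after the map was seen. This gave 36 blocks with a median length of 12.8 kb, of which 14 held a single domain. The 8 blocks of at least 30 kb spanned 433 kb, or 32.1% of the chromosome. The longest were 2 neighbours at the right end, from 1162452 to 1253609 (91.2 kb, 14 common domains) and from 1259083 to 1348697 (89.6 kb, 7 common domains). The next, from 21 to 63093, was the leftmost and spanned 63.1 kb. The other interior blocks of this size spanned 43.5 kb from 127614, 39.9 kb from 200024, 39.0 kb from 1034693, 34.9 kb from 610623 and 32.3 kb from 363376. The number of blocks depended on the joining distance, with 46 under 3 kb and 20 under 10 kb.

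The outermost blocks had higher median scores than the interior. The score is the authors' own value for each cluster, of unstated scale, and is compared only within a list. From the left end to 63093, the median score was 2.19 over 7 clusters in replicate 1 and 2.44 over 5 clusters in replicate 2. From 1259083 to the right end it was 2.25 over 4 clusters in replicate 1 and 2.06 over 7 clusters in replicate 2. The 1196 kb between them had medians of 0.753 over 123 clusters and 0.973 over 106 clusters. The highest scores there were 1.87 in replicate 1 and 1.92 in replicate 2. The lowest end scores were 1.22 in replicate 1 and 1.18 in replicate 2, so the ranges overlapped. End clusters were also longer. Median lengths on the left, on the right and between were 6.1, 10.4 and 2.8 kb in replicate 1. In replicate 2 they were 7.2, 10.0 and 2.8 kb, and length was not taken into account. Every chromosome 4 cluster with a score of at least 2 lay in these end blocks, and there were 6 such clusters in replicate 1, 7 in replicate 2 and 4 among the pooled ones. Blocks are joined from covered domains and so are densely covered by construction, with 86.0% in replicate 1 and 84.7% in replicate 2 for the leftmost one. Some interior blocks were covered at least as densely, such as the one from 773599 to 792539 with 96.3% and 97.0%. These blocks and the score of 2 were chosen after the values were seen, and no test was made.

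The neighbouring blocks at the right end differed in both coverage and score. The block from 1162452 to 1253609 was covered over 85.8% in replicate 1 and 76.5% in replicate 2. Its right neighbour, 5.47 kb away, was covered over 94.6% and 91.0%. The median scores of the first were 0.957 in replicate 1 and 0.967 in replicate 2, while those of its neighbour were 2.25 and 2.06. On the whole chromosome longer clusters scored higher. Spearman's rho between length and score was 0.817 over the 134 clusters of replicate 1 and 0.799 over the 118 of replicate 2, given as a description across clusters that share a library. Clusters under 2 kb had a median score of 0.512 in replicate 1 and 0.696 in replicate 2, and those of at least 5 kb had 1.08 and 1.38.

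The clusters of highest pooled score touched by both replicates were all at the ends. The first, from 3 to 5955, had a pooled score of 3.10, with 2.98 in replicate 1 and 3.33 in replicate 2. It was followed by clusters from 1338442 to 1349139 (pooled score 3.08), from 1325416 to 1335806 (2.97), from 7415 to 36574 (2.32) and from 1317754 to 1324504 (1.80). The first covered base was 3 in replicate 1 and 21 in replicate 2, so marking began at the first base pairs of the sequence on the left. On the right, the last covered base was 1349013 in replicate 1 and 1348697 in replicate 2, and the pooled list ended at 1349139. The final 2.84 kb in replicate 1, 3.16 kb in replicate 2 and 2.72 kb in the pooled list were not covered, and the last tile was empty in all 3 lists. Whether any read can be assigned to these bases is not known.

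In the replicate lists, most chromosome 4 clusters scored below the median of the list. The median score of the whole list was 1.21 in replicate 1 and 1.80 in replicate 2, and it was exceeded by 21 of 134 and 10 of 118 clusters of chromosome 4. Of these, 11 and 8 lay in the end blocks. The median chromosome 4 score stood at percentile 34.7 of the replicate 1 list and 26.0 of the replicate 2 list. The pooled list gave another picture, with 59 of 139 chromosome 4 clusters above the list median of 0.753, 52 of them between the end blocks, and the median chromosome 4 score at percentile 43.5. When clusters at or below the median score of their list were left out, replicate 1 marked 16.9% of the tiles, replicate 2 marked 8.28% and the pooled clusters marked 44.7%. The longest island of replicate 1 then measured 282 kb, that of replicate 2 measured 739 kb and that of the pooled clusters 71.7 kb. The result of this restriction thus differed widely between the lists.

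**Figure D3:**
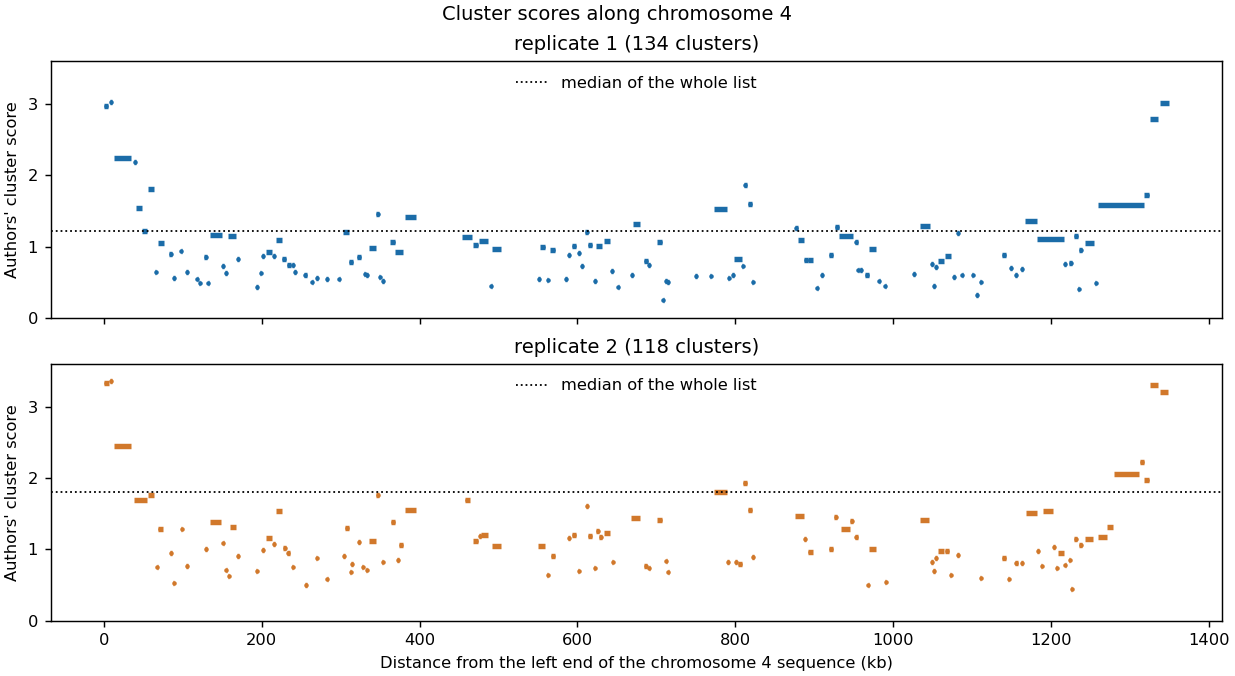
The authors' cluster score (vertical axes, scale not stated) against the distance from the left end of the chromosome 4 sequence in kb, for replicate 1 (top, 134 clusters) and replicate 2 (bottom, 118 clusters), with each cluster drawn at its full length and a dotted line at the median of the whole list. Scores of at least 2 occur near both ends in both replicates, and the highest interior score is 1.92.

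The replicates gave the same call for 1201 of the 1352 tiles, or 88.8%. The share of same calls over all tiles was not taken, nor that of tiles marked in 1 replicate only. Both marked 592 tiles, which is 43.8% of chromosome 4 against 15.0% of the tiles of all sequences, and neither marked 609. The remaining tiles were uneven between the replicates, with 135 marked in replicate 1 only and 16 in replicate 2 only. Over all sequences replicate 1 marked 17.0% of tiles, replicate 2 marked 15.5% and both marked 15.0%. On chromosome 4 these shares were 53.8%, 45.0% and 43.8%, which lie further apart in percentage points. Such gaps can widen with the marked share itself. Of tiles marked in replicate 2, both marked 592 of 608 on chromosome 4, against 21004 of 21707 over all sequences. For replicate 1 these counts were 592 of 727 and 21004 of 23749. The covered shares of the replicates lay within 10 percentage points of each other in 1075 tiles, or 79.5%. Pearson's r across tiles was 0.848, a description over neighbouring tiles of 2 lists. A complete switch, from covered throughout in 1 replicate to empty in the other, favoured replicate 1 in 39 tiles and replicate 2 in 2. Its share over all tiles was not taken. Of the 592 tiles marked in both, the pooled list marked all 592, and of the 609 marked in neither it marked 68.

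Boundaries were compared by the distance from each domain edge to the nearest edge of the same side in the other replicate. From replicate 2 to replicate 1 the median distance was 231 bp for left edges and 234 bp for right edges, with 70.3% and 63.6% within 500 bp. From replicate 1 to replicate 2 the medians were 309 and 333.5 bp, with 61.9% and 56.0% within 500 bp. Over both directions 316 of 504 edges, or 62.7%, had a counterpart within 500 bp, with 158 in each direction. The 95% Wilson interval of 58.4 to 66.8% gives counting error only. The edges are not independent, and matches are counted from both sides, so this interval is too narrow. Within 1 kb the share was 69.8%, so the wider distance added few edges.

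A subset of 80 domains paired 1 to 1, each overlapping a single domain of the other replicate. In these pairs the left edges differed by a median of 195.5 bp and the right edges by 207 bp, both well under the tile size. Both edges lay within 500 bp in 51 of the 80 pairs, and at least 1 edge differed by more than 1 kb in 13. The median edge difference was 183.5 bp in the 40 longer pairs and 208 bp in the 40 shorter ones, so it was of similar size in both. The scores of the pairs had a Spearman's rho of 0.906 between the replicates, again a description across domains.

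The differences had a direction. The replicate 2 edge lay inside the replicate 1 domain on the left in 55 of 80 pairs and on the right in 60 of 80, by medians of 164.5 and 165 bp. The replicate 2 domain was nested wholly within its partner in 42 pairs, and the reverse held in 6. The median length over these pairs was 2893.5 bp in replicate 2 and 3785 bp in replicate 1, with a median difference of 363 bp within a pair. The largest inward shift was 3157 bp on the left and 2588 bp on the right, at either end of the replicate 1 domain that began at 454374. Replicate 1 also had the longer whole list and the higher covered share in 25 of 28 windows of 50 kb on chromosome 4. Whether depth or threshold differed between the lists is not known, and their part in these shifts was not tested.

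**Figure D4:**
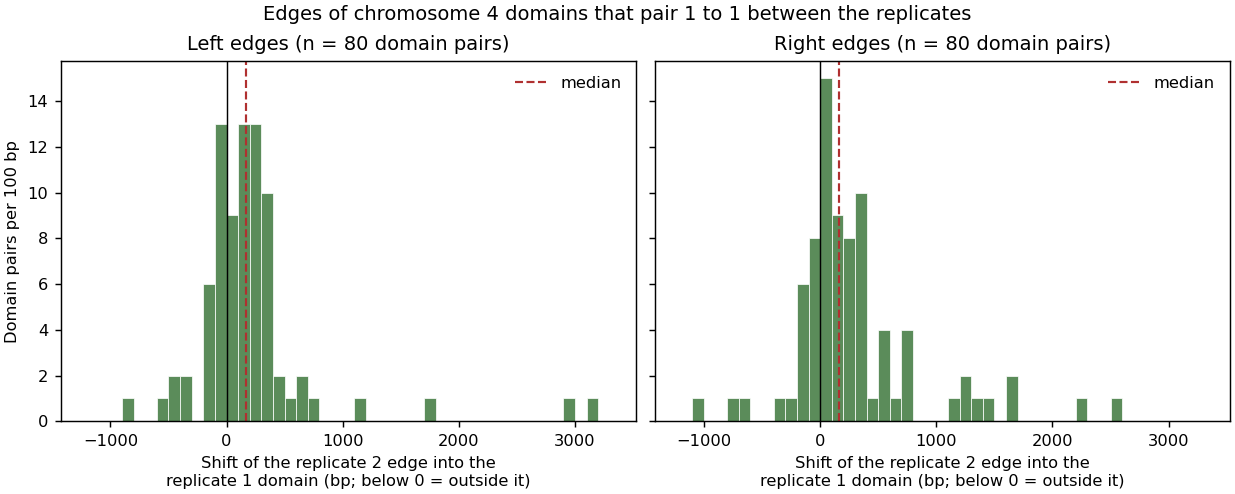
Number of domain pairs per 100 bp (vertical axis) by the shift in bp of the replicate 2 edge into the replicate 1 domain (horizontal axes, negative values lie outside it), for left and right edges of the 80 domains that pair 1 to 1. Most edges lie within 500 bp of each other, and both medians, 164.5 and 165 bp, are on the inward side.

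Domains that did not pair 1 to 1 were split or unmatched. In replicate 1, 12 domains overlapped 2 or more domains of replicate 2, and in replicate 2, 6 domains overlapped 2 or more of replicate 1. The most divided was the replicate 1 domain from 1182410 to 1216857 (34.4 kb), which was 6 domains in replicate 2 with 4.85 kb of it uncovered. The longest domain of replicate 1, from 1259083 to 1317412 (58.3 kb), was 4 domains in replicate 2 with 3.23 kb uncovered. The reverse case was the replicate 2 domain from 37998 to 54190 (16.2 kb), which was 3 domains in replicate 1 with only 0.391 kb uncovered. In each of these cases most of the domain was covered in both lists.

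No replicate 2 domain was overlapped by 31 of the 134 replicate 1 domains, or 23.1%, and 3 of the 118 replicate 2 domains were unmatched in replicate 1. The unmatched domains of replicate 1 were short, from 1313 to 3158 bp with a median of 1792 bp, against 4567 bp for the 103 matched ones. Their scores ran from 0.250 to 0.723 with a median of 0.573, against 0.927 for the matched ones. The 3 unmatched domains of replicate 2, from 66870 to 68357, from 327083 to 328685 and from 1145710 to 1147034, had scores of 0.755, 0.751 and 0.591. The pooled list covered at least 50% of each of the 34 unmatched domains.

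The length covered in replicate 1 only came to 132 kb and that covered in replicate 2 only to 15.9 kb. Of the replicate 1 length, 58.3 kb lay in unmatched domains, 58.9 kb at the edges of matched ones and 14.3 kb in gaps within them. No such stretch was long. The 5 longest in replicate 1 measured 3.16 kb from 1075287, 3.16 kb from 454374, 3.14 kb from 931376, 2.92 kb from 964635 and 2.61 kb from 604765. The 5 longest in replicate 2 were the 3 unmatched domains above, of 1.60, 1.49 and 1.33 kb, a stretch of 1.06 kb from 822893 and one of 0.834 kb from 268220. In tiles, the longest run marked in replicate 1 only was 6 tiles, and in replicate 2 only it was 2 tiles.

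The pooled list had 139 domains on chromosome 4 with a median length of 2.95 kb. Both replicates touched 87 of them, which held 701 kb, replicate 1 alone touched 27 and replicate 2 alone touched 3. The 22 touched by neither were between 1007 and 2082 bp long and held 30.7 kb, with a median score of 0.436 against 0.892 for those touched by both. Of these 22, 10 were shorter than any replicate domain of chromosome 4. The pooled list joined domains as well, since 17 of its domains held 2 or more domains of replicate 1 and 22 held 2 or more of replicate 2. Its edges lay closer to replicate 1, with a median distance of 84 bp from replicate 1 edges and 322 bp from replicate 2 edges to the nearest pooled edge. The pooled list is a list of the same replicate set, so this closeness is no independent support for either.

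Other parts of the genome gave a scale for this pattern. Domains on chromosome 4 numbered 93.2 ± 8.37 per Mb, against 53.3 ± 0.141 per Mb on the proximal 1 Mb of the 5 large arms, 52.7 ± 3.12 on the Het sequences and 13.8 ± 2.86 on the distal arms (SD, n = 2 each). The Het sequences hold mapped heterochromatin that release 5 keeps outside the arms. The marked share of tiles was 49.4% ± 6.22 on chromosome 4, against 53.3% ± 1.98 on the proximal 1 Mb, 74.97% ± 1.03 on the Het sequences and 4.34% ± 0.825 on the distal arms (SD, n = 2 each). The median domain length was 3.16 kb ± 0.212 on chromosome 4 and 5.19 kb ± 0.732 on the proximal 1 Mb (SD, n = 2 each). It was 7.67 kb ± 0.542 on the Het sequences and 2.14 kb ± 0.0389 on the distal arms (SD, n = 2 each). Tiles covered only in part made up 17.2% ± 1.26 of chromosome 4, against 9.62% ± 0.0283 of the proximal 1 Mb, 9.52% ± 0.518 of the Het sequences and 2.70% ± 0.572 of the distal arms (SD, n = 2 each). The median cluster score in replicates 1 and 2 was 0.810 and 1.01 on chromosome 4, and 0.726 and 1.00 on the distal arms. It was 1.44 and 1.88 on the proximal 1 Mb and 2.10 and 2.32 on the Het sequences. The higher domain density of chromosome 4 depended on which clusters were kept by score. In the mean of the replicates, it turned round without the clusters at or below the median score of their list, to 0.270 times that of the Het sequences and 0.388 times that of the proximal 1 Mb, against 1.78 and 1.75 times with all clusters.

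Median island length on chromosome 4 was close to that of the proximal arms. It was 2.20 kb ± 0.345 on chromosome 4, against 2.18 kb ± 0.0909 on the proximal 1 Mb, 1.82 kb ± 0.0863 on the Het sequences and 27.9 kb ± 4.03 on the distal arms (SD, n = 2 each). The next tile after a marked one was marked in 85.3% ± 1.11 of cases on chromosome 4 and 92.1% ± 0.346 on the proximal 1 Mb. It was marked in 94.7% ± 0.317 on the Het sequences and 70.0% ± 0.963 on the distal arms (SD, n = 2 each). These shares followed the same order as the median domain lengths of the parts. Edges within 500 bp of a counterpart made up 63.0% ± 5.65 on chromosome 4 and 69.8% ± 0.185 on the proximal 1 Mb (SD, n = 2 directions each). The share was 69.2% ± 4.21 on the Het sequences and 64.7% ± 13.4 on the distal arms (SD, n = 2 directions each). These shares come from a single comparison of the replicates read in both directions, so their SD is not a spread between libraries. On chromosome 4 the number of matched edges was the same in both directions, and only the number of edges compared differed. With 2 libraries of 1 condition no test across samples was made for any of these comparisons.

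**Figure D5:**
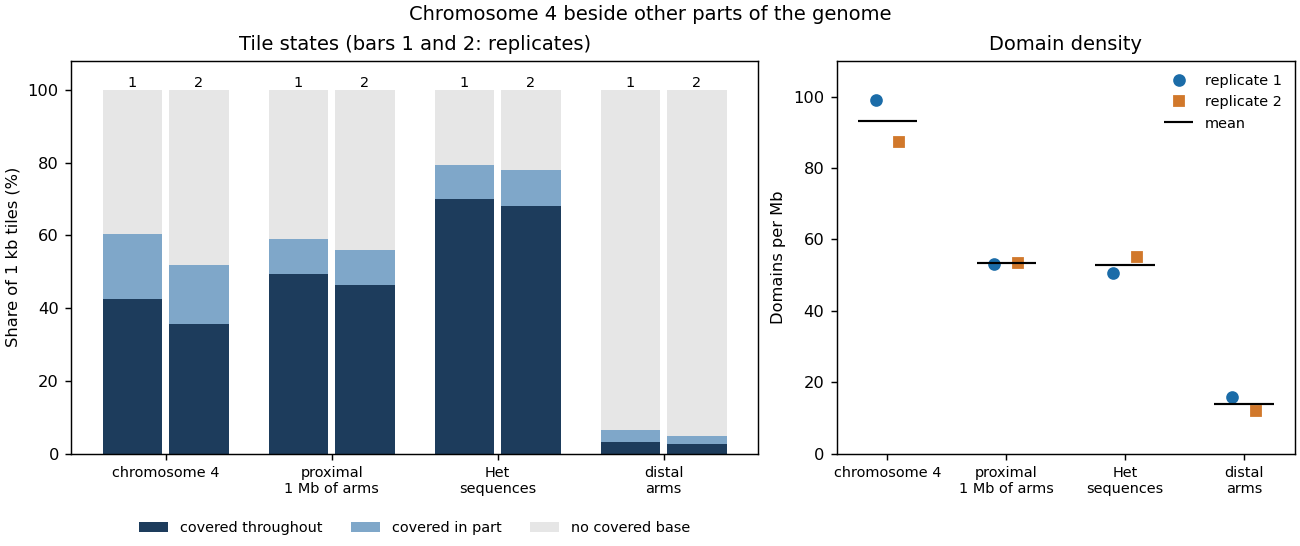
Left, share of 1 kb tiles in percent that were covered throughout, in part or not at all, with 1 bar per replicate, on chromosome 4, the proximal 1 Mb of the 5 large arms, the Het sequences and the distal arms. Right, domains per Mb for each replicate (points) and their mean (line), with chromosome 4 at 93.2 and the other parts at 53.3, 52.7 and 13.8.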

How the data were processed

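Cluster lists were taken as deposited by the authors, 1 for each H3K9me2 ChIP replicate and 1 for the replicate set, with positions on FlyBase release 5 per the file headers. Bowtie 0.12.7 is among the tools named in the submitters' processing notes. How clusters were called, at which threshold, and how replicates were combined is not given in the sources used here. The score of each cluster is the authors' deposited value, with no scale stated in the file headers. No read counts were used, so the depth is unknown, and a shallower library or stricter threshold would shorten a list. The 2 inputs enter only through the authors' calls.

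Covered shares, domains, islands and edge distances were computed with Python 3.11.15 and its libraries pandas 2.3.3, scipy 1.17.1 and numpy 2.4.6, and these steps were tested on simulated clusters. Tiles count as marked from 50% covered. Clusters running past a sequence end were cut at that end (3 per replicate, 5 pooled, none of them on chromosome 4). Lengths were not corrected for assembly gaps or sequence where reads cannot be placed. The proximal 1 Mb was taken from the left end of arms 2R and 3R and the right end of the other large arms (X, 2L, 3L). Named regions are the 10 longest common domains and islands, the 5 highest pooled scores, the 5 longest stretches in 1 replicate only and both chromosome ends. The region and its measures were chosen with earlier results of these data known. Values are descriptions, as 2 libraries of 1 condition allow no test between groups.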

Additional observations from a re-analysis of the deposited data

How the results depend on the processing

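The lists hold no depth, and no replicate cluster was shorter than 1301 bp. No paired analysis was possible because no clusters were called for the inputs alone. Without the clusters at or below the median score of their list (upper 50% by score), the covered share of chromosome 4 was 12.6%, the marked tiles 12.6%, the number of domains 15.5, their median length 7.88 kb, the median island 2.87 kb and the longest island 511 kb. These are means of unlike values, with 16.8% covered and 21 domains in replicate 1 but 8.33% and 10 domains in replicate 2, and 44.1% and 59 domains with the pooled clusters. Edges within 500 bp were then 51.6%, the Jaccard index 0.481, the marked share 8.22 times that of the distal arms, and the domain density 0.270 times that of the Het sequences and 0.388 times that of the proximal 1 Mb. With the pooled list the covered share was 58.7%, the marked tiles 59.9%, the median island 1.51 kb, the longest island 48.9 kb, the ratio to the distal arms 9.02 and the density ratio to the Het sequences 2.18. Joining clusters closer than 1 kb gave medians of 4.92 kb for domains and 3.09 kb for islands. Keeping only clusters of at least 2 kb gave a median domain of 4.74 kb and a density ratio to the Het sequences of 1.47. Counting any overlap marked 56.3% of tiles. Edges within 250 bp were 48.8% and within 1 kb 69.8%. A proximal window of 0.5 Mb gave a ratio to the distal arms of 9.16 and one of 2 Mb gave 14.5. Joining over gaps under 10 kb left 20 blocks. The density ratios and the block distances were added after the data were seen. The cause was not tested beyond the construction of these settings. With 2 replicates, the value of either alone lies within 1 SD of their mean by construction, which says nothing about stability.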
